A study of Homo sapiens with 12 samples.

Results

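The response of the human medulloblastoma line DAOY to fluid shear stress (FSS) was taken from 6 of the 12 libraries of the series, 3 of DAOY cells under FSS and 3 of DAOY cells kept static. They were chosen by the names of their columns in the deposited count table. Of 63241 genes in that table, 19631 passed a filter on low counts and are described here. The labels give the genotype of every culture as WT. In the FSS group, cells in 6-well plates with aCSF, an artificial cerebrospinal fluid, stood on an orbital shaker inside the incubator, turning at 100 rpm for 18 h. Static cells were kept in the same medium without shaking, and RNA of both groups was collected after 18 h. The other 6 libraries, with the same design, are of the medulloblastoma line ONS76. They serve for comparison and also enter the count filter, the scaling and the estimate of spread behind the DAOY tests. Each group is 1 established line grown in bulk culture, so what is seen is the response of that line. Shear and the shaking that made it cannot be told apart, and in bulk RNA fewer cells of a type and less RNA per cell cannot be told apart. The series text names biological replicates but not how they were kept apart. The p-values below therefore cover the variation seen among these cultures, which may be technical.

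Medulloblastoma is a tumour of the cerebellum that can spread through the cerebrospinal fluid, where cells meet flow. In cells that line vessels, flow is sensed at the membrane by ion channels, adhesion complexes and the glycocalyx. Kinase cascades and transcription factors of the KLF, AP-1 and Notch families act downstream there. A cell that is perturbed may also use general stress programmes, such as the heat shock response, in which HSF1 induces cytosolic chaperones.

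Of the 20 markers of medulloblastoma and granule neuron progenitors, 13 passed the filter in these cells. EN2, ZIC1, ZIC2, SFRP1, GLI1, GLI2 and PAX6 were present, whereas NEUROD1, HHIP and SOX2 were listed at 0 in all libraries and ATOH1 was too low to test. The 20 markers summed to 0.0292 to 0.0310% of counts under FSS and 0.0255 to 0.0260% in static cells. In the same order, epithelial markers summed to 0.0549 to 0.0579% and 0.0575 to 0.0604%. Fibroblast and pericyte markers summed to 0.488 to 0.520% and 0.424 to 0.477%, and astrocyte and oligodendrocyte markers to 0.00216 to 0.00243% and 0.00170 to 0.00211%. Markers of endothelial cells summed to 0.00433 to 0.00478% of counts under FSS and 0.00446 to 0.00468% in static cells. Markers of immune cells summed to 0.000929 to 0.00107% under FSS and 0.000609 to 0.000902% in static cells. Library totals were 39.2 to 44.7 M counts under FSS and 38.1 to 41.0 M in static cells. Over genes at 5 counts per 1000000 counts (CPM) or more, the median coefficient of variation between libraries of a group was 4.17% under FSS and 4.19% in static cells. In a principal component analysis of the DAOY libraries, the conditions separated without overlap on component 1 (53.02% of the variance), and component 2, with 12.9%, set static library 3 apart from the other static libraries. The 10 most counted genes held 9.49 to 9.54% of counts under FSS and 8.22 to 8.73% in static cells. Many genes that most cells use, such as JUNB, TIMP1, SDHA and ITGA5, were listed at 0 in all 12 libraries, so a gene listed at 0 may still be expressed.

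Shaken DAOY cells carried more mRNA of cytosolic chaperones, of immediate early and MAP kinase feedback genes, of inflammatory genes, of the Notch pathway and of angiogenic and growth factors. They carried less mRNA of the DNA replication and mitosis machinery, of lipid synthesis enzymes, of several actin-binding proteins and of cold-inducible RNA-binding proteins. The changes were many and mostly small. By edgeR's quasi-likelihood test with a Benjamini-Hochberg adjusted p under 0.05, 7786 genes (39.7% of those tested) were called, 3834 of them higher (19.5%) and 3952 lower (20.1%) in FSS than in static cells. Counts of risen and fallen list members below are to be read against these shares. The median size of a called log2 fold change, taken as FSS over static, was 0.42 for rises and 0.34 for falls. The groups did not overlap in 3655 of the risen and 3770 of the fallen genes, against 49.9% of all tested genes. The rule that named the genes of largest change required no overlap, so separation of their libraries is no added evidence. Other genes below were picked by small p or with their values known, so separation stated for them adds none either. Changes of 2-fold or more were called for 761 higher genes (3.88%) and 280 lower genes (1.43%), and most were of sparse genes: 128 of the higher and 44 of the lower ones reached 5 CPM in either group. Over all tested genes the median log2 fold change was 0.0021. Without static library 3, 3207 genes were called higher and 3449 lower.

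**Figure D1:**
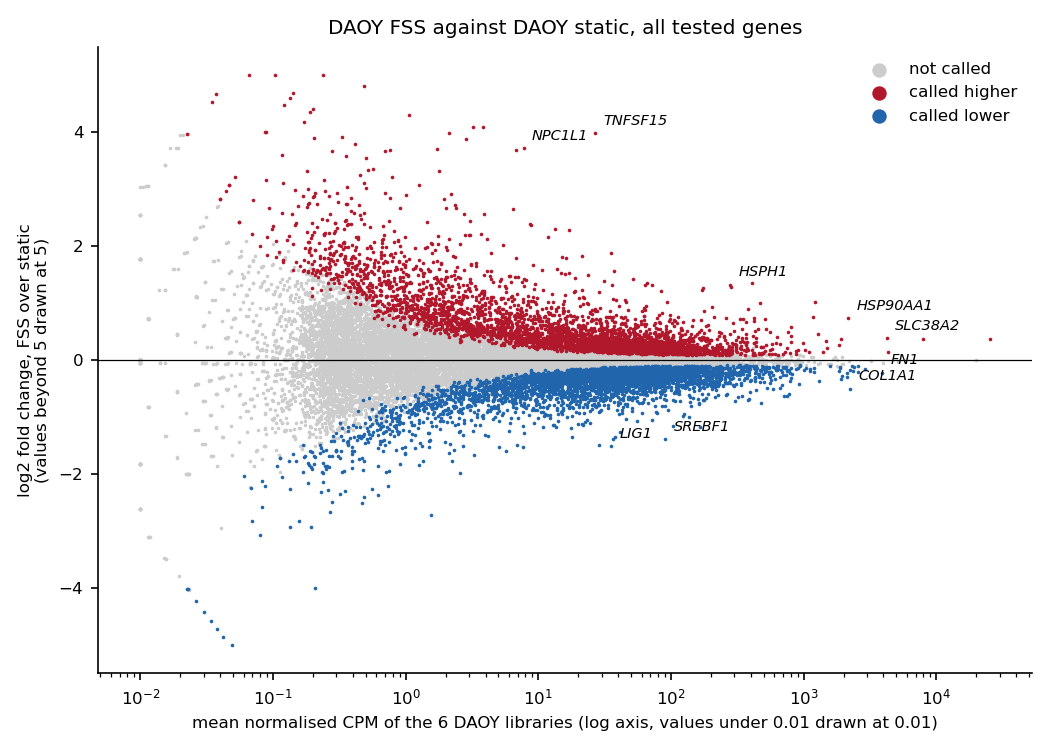
Log2 fold change of FSS over static (vertical axis) against the mean CPM of the 6 DAOY libraries (log axis) for each tested gene, coloured red where called higher, blue where called lower and grey where not called. Most large changes lie at low levels, and the risen genes had a median static level of 15.2 CPM, against 34.3 CPM for the fallen ones.

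Several of the 20 largest rises came from genes that were sparse in static cells. TNFSF15, which encodes the cytokine TL1A (GRCh38, chr9:114784635-114806126), had 46.7, 47.7 and 56.7 CPM under FSS, against 3.55, 3.54 and 2.38 CPM in static cells. The log2 fold change was 3.99 ± 0.13 SE (edgeR adjusted p = 1.16e-21), and the rule that named TNFSF15 required no overlap. Its receptor gene TNFRSF25 had 4.50 ± 0.11 CPM under FSS and 3.85 ± 0.09 CPM in static cells (SD, n = 3 each), which did not pass the test (edgeR adjusted p = 0.131). Over the TNF superfamily list 5 of 23 tested members rose and 4 fell (median log2 fold change -0.040), shares near the 19.5% and 20.1% of all tested genes. The rises were 2 without FSS library 2, static library 2 or static library 3 and 3 without FSS library 3. TNFRSF9, a costimulatory receptor, fell by 0.52 and TNFSF10, the death ligand TRAIL, fell by 0.62 on the log2 scale.

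Among the other genes with the 20 largest rises, KCNE4, a regulatory subunit of potassium channels, had 28.2, 24.5 and 32.3 CPM under FSS, against 5.64, 6.80 and 4.97 CPM in static cells. KCNJ16, an inwardly rectifying potassium channel, had 19.8, 17.9 and 20.01 CPM under FSS, against 4.04, 5.17 and 3.72 CPM in static cells. For both genes the rule that named them required no overlap between conditions. HRH2, a histamine receptor, rose by 1.81 and SCG2, a granin of secretory vesicles, rose by 1.83 on the log2 scale. Among the 20 largest falls, RIPOR2, an inhibitor of RhoA signalling, fell by 1.59, MYLK, the myosin light chain kinase, fell by 1.29, and KNTC1, a kinetochore protein, fell by 1.36 on the log2 scale.

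**Figure D2:**
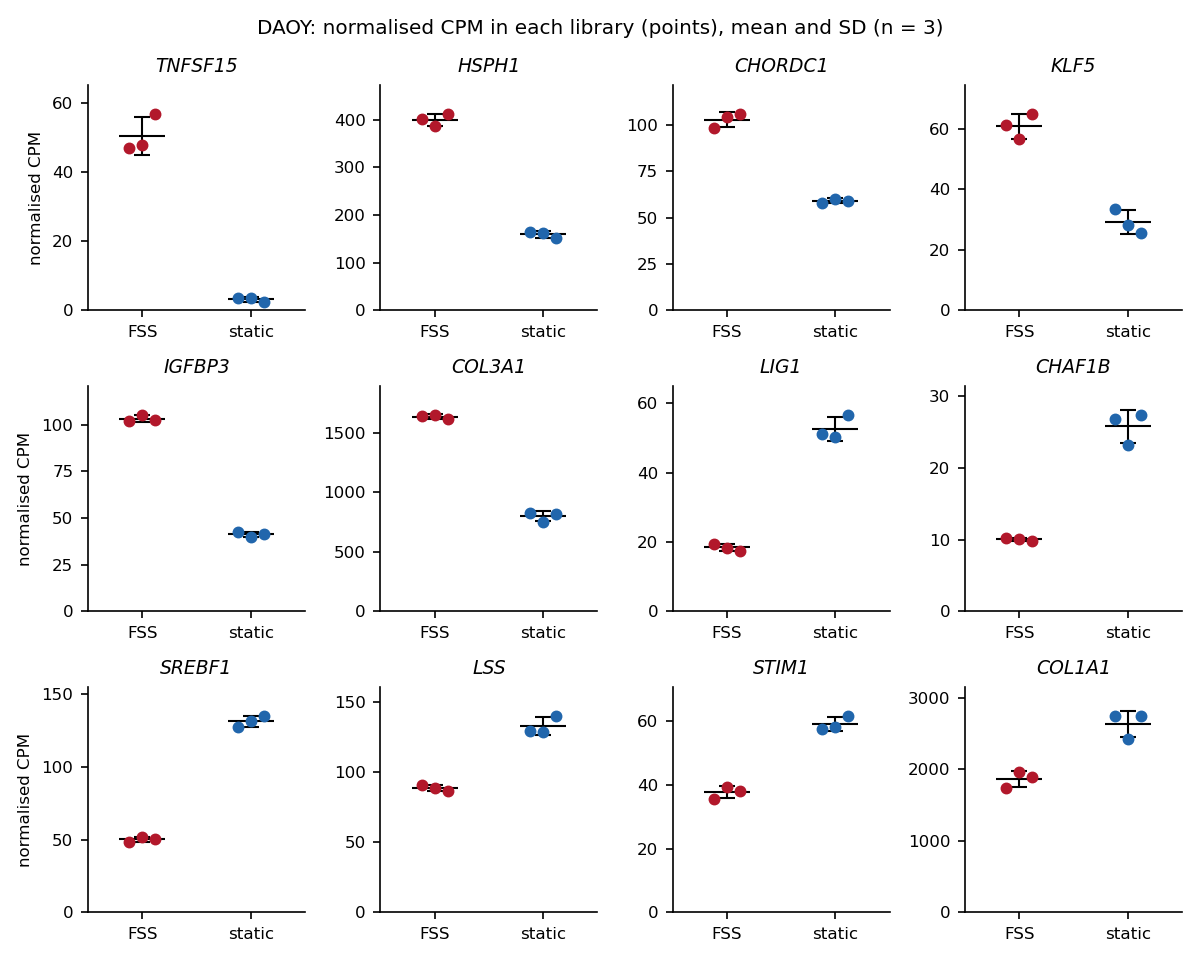
Normalised CPM of named genes (vertical axes, each from 0) in the 3 FSS libraries (red, left) and the 3 static libraries (blue, right) of DAOY, with the mean and SD as bars. For each gene drawn, the FSS points lie together and apart from the static points. The rule that named TNFSF15, COL3A1, LIG1, CHAF1B, SREBF1 and COL1A1 required this. The other genes were drawn with their values known, so their separation is no added evidence.

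Most cytosolic chaperone genes rose. Of 26 tested members of the heat shock list 17 rose and 2 fell, with a median log2 fold change of 0.51. HSPH1, a nucleotide exchange factor of HSP70 (chr13:31134974-31162388), had 401, 386 and 412 CPM under FSS, against 165, 163 and 151 CPM in static cells. The FSS libraries lay close together, 2.51-fold above the static ones on average (log2 fold change 1.33 ± 0.04 SE, edgeR adjusted p = 2.96e-22). HSPA8, the constitutive HSP70, had 1550, 1404 and 1487 CPM under FSS, against 860, 889 and 877 CPM in static cells. CHORDC1, a co-chaperone of HSP90, had 98.2, 104 and 106 CPM under FSS, against 57.6, 60.2 and 59.1 CPM in static cells. The inducible HSP70 gene HSPA1A rose by 1.27 (its reads may be shared with the near-identical HSPA1B), the small chaperone HSPB1 rose by 1.02 and the HSP40 member DNAJA1 rose by 0.90 on the log2 scale. Of the HSP90 pair, HSP90AA1 rose by 0.73 whereas HSP90AB1 fell by 0.16. BAG3, another HSF1 target, did not pass the test, nor did HSF1 itself (log2 fold changes of 0.08 and -0.06). The share of all counts in heat shock genes was 1.26 to 1.31% under FSS and 0.956 to 0.971% in static cells.

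A pair of facing GAA triplets (GAANNTTC, the core of a heat shock element, which reads alike on both strands) was searched for in RefSeq promoter windows of GRCh38.p14, from 250 bases before to 50 after the start. It lay in the windows of 9 of the 17 risen heat shock genes (52.9%) and of 9 of all 23 with a window (39.1%), against 4.98% of the 12761 windows of tested genes. CHORDC1 and HSPA8 are shown because they hold several such pairs, given in capitals. The printed stretches are the 250 bases before the start, on the strand of the gene, at chr11:90223050-90223299 and chr11:123062137-123062386, both on the minus strand.
CHORDC1: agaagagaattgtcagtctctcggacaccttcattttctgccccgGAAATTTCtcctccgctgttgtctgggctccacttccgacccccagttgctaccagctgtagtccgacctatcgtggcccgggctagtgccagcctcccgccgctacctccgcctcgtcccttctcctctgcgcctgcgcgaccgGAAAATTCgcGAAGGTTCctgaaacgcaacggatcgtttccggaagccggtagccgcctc
HSPA8: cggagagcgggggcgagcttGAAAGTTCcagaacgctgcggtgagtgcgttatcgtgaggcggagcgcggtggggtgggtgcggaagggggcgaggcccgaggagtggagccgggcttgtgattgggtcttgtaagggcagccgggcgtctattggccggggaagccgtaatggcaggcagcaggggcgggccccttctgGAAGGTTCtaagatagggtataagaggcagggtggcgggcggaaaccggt
CHORDC1 holds 3 pairs and HSPA8 holds 2. A match describes the letters only.

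Of 22 tested genes of the unfolded protein response of the endoplasmic reticulum 5 rose and 5 fell, shares near the 19.5% and 20.1% of all tested genes, with a median log2 fold change of -0.0029. HSPA5, the main chaperone of that compartment, had 740, 726 and 748 CPM under FSS, against 781, 708 and 720 CPM in static cells. These ranges overlapped (log2 fold change 0.00 ± 0.04 SE, edgeR adjusted p = 0.974). DNAJB9, a co-chaperone of HSPA5, rose by 0.53, while EDEM1 of the degradation pathway fell by 0.52 and the isomerase PDIA4 fell by 0.20 on the log2 scale. In ONS76 the same list had a median of 0.21. The difference of responses (DAOY minus ONS76) was called negative for 14 of its members and positive for 2. Over all tested genes that difference was called negative for 10.7% and positive for 8.34%.

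Genes that respond to cooling went the other way. RBM3, a cold-inducible RNA-binding protein, had 64.8, 61.0 and 68.6 CPM under FSS, against 144, 139 and 147 CPM in static cells. CIRBP, its relative, had 111, 97.6 and 99.0 CPM under FSS, against 231, 218 and 240 CPM in static cells. RBM3 did not overlap between conditions, and the rule that named CIRBP required that. The fitted log2 fold changes of RBM3 and CIRBP were -1.15 ± 0.04 SE and -1.17 ± 0.04 SE. SRSF5, a splicing factor, fell by 0.43, and RTN3 was not called, so 3 of 4 tested members of the list fell. In ONS76 RBM3 and CIRBP fell too, by 1.57 and 0.86 on the log2 scale. The labels give no temperature of the medium for either condition, and its part in the heat shock and cold-inducible changes was not tested.

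KLF factors are zinc finger regulators, and 9 of 13 tested members rose (median 0.17). KLF5 had 61.1, 56.7 and 64.9 CPM under FSS, against 33.4, 28.2 and 25.7 CPM in static cells, with every FSS library above every static one. KLF2, the flow-induced member in endothelium, was sparse at 7.85 ± 0.79 CPM under FSS and 5.52 ± 0.34 CPM in static cells (SD, n = 3 each), and rose by 0.50 on the log2 scale. KLF4 rose by 0.33. The number of risen KLF genes was 6 when static library 3 was left out.

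Of 21 tested feedback genes of the MAP kinase cascade 12 rose and 1 fell (median 0.30). EPHA2, an ephrin receptor that the cascade induces, had 260, 255 and 287 CPM under FSS, against 153, 142 and 124 CPM in static cells. PHLDA1 had 406, 425 and 408 CPM under FSS, against 255, 254 and 244 CPM in static cells. In both genes every FSS library lay above every static one. The phosphatase genes DUSP4, DUSP5 and DUSP10 rose by 0.88, 0.80 and 1.13, and the inhibitor SPRY4 rose by 0.71 on the log2 scale. DUSP6 rose by 0.19, though 40.5% of its exon bases are shared with another gene and the strand setting of the counting is not given. Of 18 tested immediate early genes 13 rose and 1 fell (median 0.34). MCL1, an antiapoptotic BCL2 relative among them, rose by 0.52 on the log2 scale. EGR1, a classical serum-response gene, had 28.2, 37.6 and 29.7 CPM under FSS, against 34.1, 28.4 and 36.0 CPM in static cells, and was not called.

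Of 20 tested members of the Notch pathway 11 rose and 1 fell (median 0.26). Notch receptors are cut when a ligand on a neighbouring cell binds, and the freed part switches on HES and HEY genes. DLL1 had 18.7, 16.7 and 19.9 CPM under FSS, against 9.68, 8.94 and 10.2 CPM in static cells. Of the other ligand genes, JAG1 rose by 0.50, JAG2 rose by 0.22 and DLL4 rose by 1.21 on the log2 scale, while DLL3 was not called. The target HEY1 rose by 0.57 on the log2 scale. The receptor NOTCH1 rose by 0.45 whereas NOTCH2 fell by 0.30, with 308 to 329 CPM under FSS and 374 to 425 CPM in static cells.

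Secreted antagonists and ligands of the TGF-beta, BMP and Wnt pathways were among the genes that rose. Follistatin (FST), which binds activin, had 20.9, 21.4 and 23.1 CPM under FSS, against 9.97, 10.5 and 9.19 CPM in static cells. BMP6, a ligand, had 9.06, 10.8 and 11.1 CPM under FSS, against 4.08, 3.92 and 3.25 CPM in static cells. DKK1, a secreted Wnt inhibitor, had 38.3, 40.5 and 40.7 CPM under FSS, against 19.9, 16.5 and 15.8 CPM in static cells. Each of these rose more than 2-fold on average, with no overlap between conditions. SMAD2, SMAD3 and SMAD4, which carry the TGF-beta signal, had log2 fold changes between -0.01 and 0.04 and were not called. The BMP-induced gene ID1 fell by 0.21 and ID3 fell by 0.29. Of 23 tested TGF-beta genes 11 rose and 3 fell (median 0.09), of 27 BMP genes 8 rose and 3 fell (0.016), and of 35 Wnt genes 10 rose and 4 fell (0.15). In the Hedgehog pathway, which drives a subgroup of medulloblastoma, 5 of 17 rose and 2 fell (0.11), and the rises were 2 without FSS library 1 and 3 without static library 2 or 3. BOC, a Hedgehog co-receptor, fell by 0.75 and GLI2 fell by 0.45, while GLI1, the usual readout, rose by 0.31 (edgeR adjusted p = 0.0315), a call lost under 5 of 15 processing alternatives.

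The inflammatory list held 16 risen and 2 fallen of 29 tested members (median 0.29). IRAK2, a kinase below interleukin receptors, had 9.64, 9.62 and 9.30 CPM under FSS, against 4.73, 4.01 and 3.98 CPM in static cells. The chemokine CCL2 had 34.6, 35.8 and 33.6 CPM under FSS, against 20.4, 17.9 and 17.6 CPM in static cells. CXCL8 rose by 1.06 and the NF-kB inhibitor NFKBIA rose by 0.29 on the log2 scale. Of the angiogenic and growth factors 15 of 27 rose and 2 fell (median 0.44). VEGFA, the main endothelial growth factor, had 225, 218 and 238 CPM under FSS, against 168, 157 and 148 CPM in static cells. The vasoactive peptide genes ADM and EDN1 rose by 1.03 and 0.81. PDGFC fell by 0.46, so the growth factors did not all rise. Endothelial and immune marker sums are given above, and the part of such cells in these changes was not tested.

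Of 18 tested members of the insulin-like growth factor axis 8 rose and 2 fell (median 0.21). IGFBP3, which sequesters IGF, had 102, 105 and 103 CPM under FSS, against 42.5, 40.0 and 41.7 CPM in static cells (log2 fold change 1.32 ± 0.06 SE, edgeR adjusted p = 6.67e-18). The 6 values fell into a tight high set and a tight low set. The stanniocalcin STC2, an inhibitor of the protease PAPPA, rose by 0.69, and PAPPA, which cleaves binding proteins, fell by 0.66 on the log2 scale. IRS2, an adaptor of the receptors, rose by 0.74. IGF1R and INSR were not called.

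Axon guidance genes moved in both directions. Of 41 tested members 15 rose and 12 fell (median 0.12). The ephrin EFNA2 had 4.93, 4.599 and 5.51 CPM under FSS, against 1.00, 1.02 and 1.249 CPM in static cells. The receptor EPHA5 had 3.21, 3.46 and 4.04 CPM under FSS, against 7.87, 9.87 and 7.54 CPM in static cells. The rule that named both genes required no overlap between conditions, and they moved in opposite directions. The semaphorin receptor PLXNA3 rose by 0.82, whereas its relatives PLXNB2 and PLXNA1 fell by 0.47 and 0.42.

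Of 21 tested genes of mechanosensitive channels 6 rose (28.6%) and 5 fell (23.8%), against 19.5% and 20.1% of all tested genes (list median 0.033). Without FSS library 1, 3 fell. PIEZO1, a channel opened by stretch and shear, had 42.7, 49.2 and 49.7 CPM under FSS, against 54.1, 53.4 and 52.1 CPM in static cells, a small fall (log2 fold change -0.17 ± 0.05 SE, edgeR adjusted p = 0.00719) whose call was lost under 2 of 15 alternatives, one of them without FSS library 1. PIEZO2 had 11.7, 12.0 and 10.7 CPM under FSS, against 9.17, 12.3 and 10.0 CPM in static cells, and was not called. LRRC8A, the core of the volume-regulated anion channel, rose by 0.44 and TRPC1 fell by 0.54 on the log2 scale.

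The store-operated calcium entry list held a larger fall. STIM1, the calcium sensor of the endoplasmic reticulum, had 35.6, 39.4 and 38.1 CPM under FSS, against 57.5, 58.0 and 61.5 CPM in static cells (log2 fold change -0.65 ± 0.05 SE, edgeR adjusted p = 1.09e-12). ITPR3, a calcium release channel of the same membrane, fell by 0.49 and ATP2B4, a pump that exports calcium, fell by 0.59. STIM2 rose by 0.20, a call lost under 3 of 15 alternatives, and ORAI1, the pore partner, was not called. These were 3 falls (18.8%) and 2 rises (12.5%) among 16 tested members (median -0.028). Neither share exceeded the 20.1% fallen and 19.5% risen of all tested genes.

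Of 25 tested genes of ion and osmolyte transport 12 rose and 8 fell (median 0.13). ATP1B1, the beta subunit of the sodium pump, had 236, 220 and 266 CPM under FSS, against 108, 103 and 96.9 CPM in static cells. SGK1, a kinase that raises sodium transport, had 86.5, 88.6 and 96.6 CPM under FSS, against 39.1, 36.8 and 32.6 CPM in static cells. Both rose more than 2-fold on average, without overlap. ATP1B3 rose by 0.61 and AKR1B1, which makes sorbitol, rose by 0.70, while the taurine carrier SLC6A6 fell by 0.72 on the log2 scale. Osmolality of the medium is not given in the labels.

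Matrix genes moved both ways, with more falls than rises. COL3A1, the chain of type III collagen, had 1643, 1649 and 1615 CPM under FSS, against 830, 754 and 821 CPM in static cells. COL1A1 had 1741, 1965 and 1887 CPM under FSS, against 2745, 2422 and 2740 CPM in static cells. COL1A2, the other chain of type I collagen, had 968, 975 and 955 CPM under FSS, against 670, 594 and 667 CPM in static cells. The type I chains thus moved in opposite directions, by -0.50 and 0.59 on the log2 scale. COL1A2 did not overlap between conditions, and the rule that named COL1A1 required that. Of 46 tested collagens, laminins and glycoproteins 8 rose and 20 fell (median -0.10). The crosslinking enzymes LOX, LOXL1 and LOXL3 fell by 0.62, 0.83 and 0.79. Without FSS library 3 or static library 3, 5 members of this list rose instead of 8. The 10 fibroblast and pericyte markers, which include the collagen genes above, summed to 0.488 to 0.520% of counts under FSS and 0.424 to 0.477% in static cells, with THY1 listed at 0. Their part in the matrix changes was not tested.

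SERPINE2, an inhibitor of thrombin and plasminogen activators, had 591, 571 and 592 CPM under FSS, against 239, 229 and 218 CPM in static cells (log2 fold change 1.35 ± 0.04 SE, edgeR adjusted p = 1.16e-22). The protease list as a whole held 11 rises and 6 falls among 31 tested members (median 0.15), with ADAM9 falling by 0.70.

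Actin-binding genes fell more often than they rose, with 13 falls and 3 rises among 31 tested members of the SRF and actin list (median -0.16). The tropomyosin TPM2 had 182, 177 and 177 CPM under FSS, against 259, 244 and 264 CPM in static cells. Nonmuscle myosin MYH9 had 1140, 1145 and 1157 CPM under FSS, against 1494, 1484 and 1464 CPM in static cells. The filamin FLNA fell by 0.28, while FHL1 rose by 0.73 and ACTB rose by 0.28 on the log2 scale. SRF itself was not called. YAP and TAZ targets showed 12 rises and 5 falls among 27 tested members (median 0.10). Among them ANKRD1 rose by 0.46 and CCN1 rose by 0.29 on the log2 scale. CLDN4, a tight junction claudin, belongs to neither list but to that of integrins and cell-cell adhesion. It had 26.5, 21.5 and 27.8 CPM under FSS, against 7.34, 7.76 and 6.60 CPM in static cells.

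**Figure D3:**
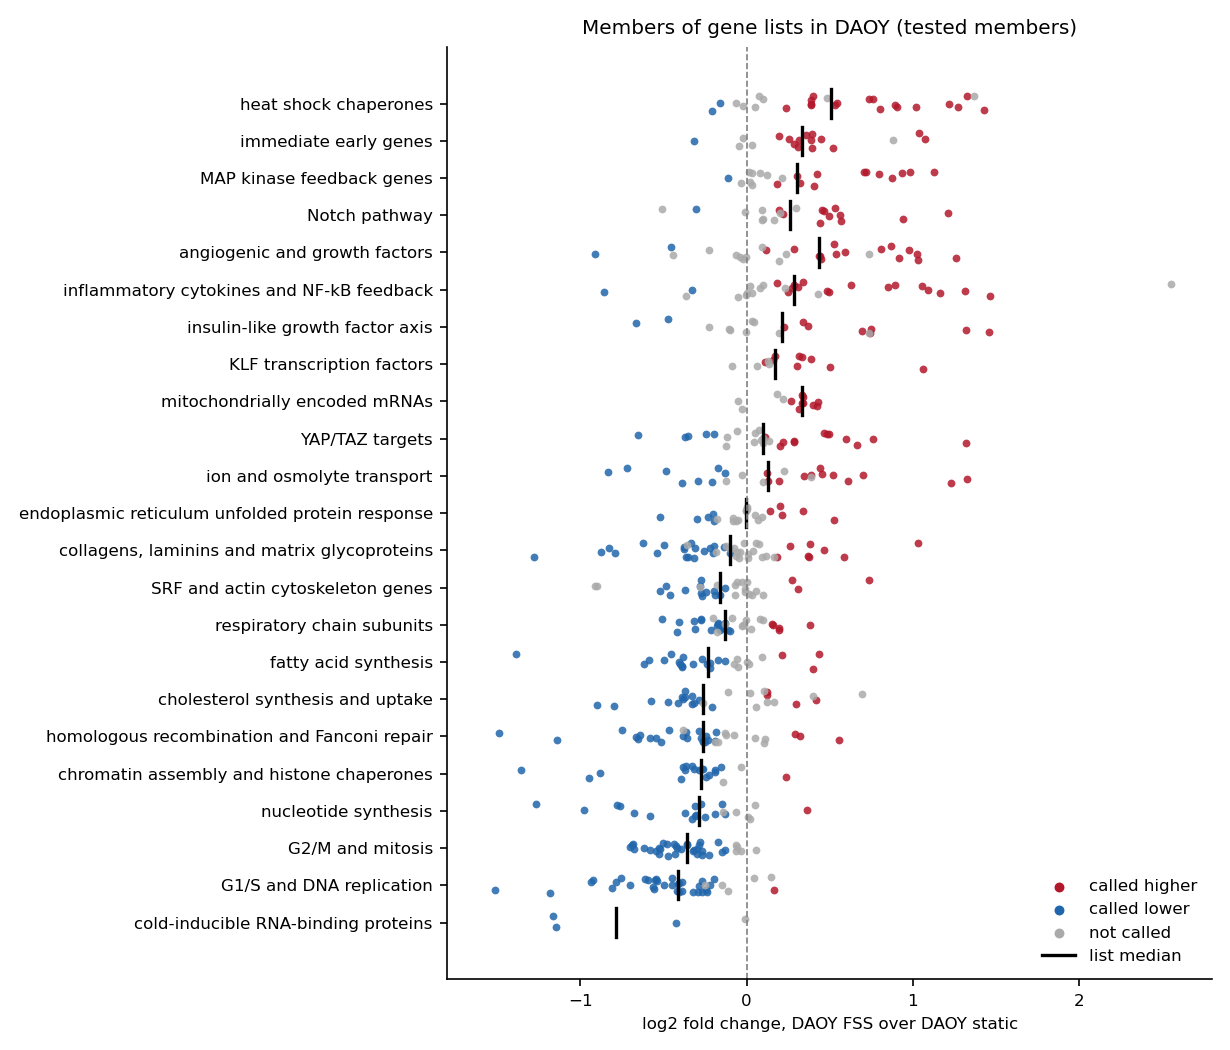
Log2 fold change of FSS over static (horizontal axis) for each tested member of 23 gene lists, red where called higher, blue where called lower and grey where not called, with a bar at the list median. The heat shock list lies mostly to the right of 0, and the G1/S and G2/M lists lie mostly to the left.

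Most replication genes fell. Of 39 tested genes of G1/S and DNA replication 33 fell and 1 rose (median -0.41). LIG1, the ligase that joins Okazaki fragments (chr19:48115445-48170603), had 19.5, 18.2 and 17.5 CPM under FSS, against 51.1, 50.3 and 56.6 CPM in static cells. MCM5, a subunit of the replicative helicase, had 41.7, 42.0 and 42.0 CPM under FSS, against 82.0, 75.1 and 81.3 CPM in static cells. E2F1, the transcription factor that induces this set, had 13.7, 13.9 and 14.1 CPM under FSS, against 27.6, 25.4 and 26.6 CPM in static cells. All FSS libraries of these 3 genes lay below all static ones, as the rule that named LIG1 required. CDC45, a part of the active helicase, fell by 1.18, MCM3 fell by 0.27 and the licensing factor CDT1 fell by 0.45 on the log2 scale. CCNE1 and CDC25A, which act at entry into S phase, were not called.

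The E2F site TTCCCGC, searched on both strands, lay in the promoter windows of 13 of 28 fallen G1/S genes (46.4%) and of 14 of all 34 with a window (41.2%). It lay in 9.42% of all windows, in 12.3% of those of all fallen genes and in 8.5% of those of all risen genes. LIG1, MCM3 and CDT1 are shown as members that fell by different amounts, with the site or its complement GCGGGAA in capitals. The stretches are the 250 bases before the start on the strand of the gene, at chr19:48170345-48170594 and chr6:52284743-52284992 on the minus strand and chr16:88803539-88803788 on the plus strand.
LIG1: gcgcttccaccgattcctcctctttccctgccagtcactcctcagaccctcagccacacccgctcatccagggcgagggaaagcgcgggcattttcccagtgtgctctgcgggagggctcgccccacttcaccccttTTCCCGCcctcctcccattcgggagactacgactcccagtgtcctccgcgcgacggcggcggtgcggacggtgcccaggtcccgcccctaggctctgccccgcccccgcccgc
MCM3: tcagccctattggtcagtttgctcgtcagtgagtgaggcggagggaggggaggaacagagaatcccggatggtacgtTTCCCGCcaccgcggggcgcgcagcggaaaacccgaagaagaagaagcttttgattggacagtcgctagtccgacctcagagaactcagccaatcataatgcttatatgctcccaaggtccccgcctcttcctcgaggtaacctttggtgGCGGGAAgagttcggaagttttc
CDT1: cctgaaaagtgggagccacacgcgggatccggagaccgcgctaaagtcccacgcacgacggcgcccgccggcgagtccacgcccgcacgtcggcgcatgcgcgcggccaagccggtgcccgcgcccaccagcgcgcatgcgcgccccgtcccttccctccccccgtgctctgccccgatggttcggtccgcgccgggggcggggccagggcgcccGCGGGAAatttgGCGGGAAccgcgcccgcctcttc
LIG1 holds 1 site, and MCM3 and CDT1 hold 2 each.

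Neighbouring programmes fell with replication. Of 22 tested nucleotide synthesis genes 16 fell and 1 rose (median -0.29), with the thymidine kinase TK1 at 25.4, 24.5 and 22.8 CPM under FSS, against 61.4, 54.8 and 58.5 CPM in static cells. The ribonucleotide reductase subunit RRM2 fell by 0.98. Of 20 chromatin assembly genes 17 fell and 1 rose (-0.27), and CHAF1B, a subunit of the histone deposition factor CAF-1, fell by 1.35. Of 34 genes of homologous recombination and Fanconi repair 22 fell and 3 rose (-0.26). Replication-dependent histones did not follow: 6 of 15 tested members rose and 1 fell (0.19), led by H4C14 and H4C15, near-identical copies whose reads may be shared. Most mRNAs of these histones lack the polyA tail that the library kit selects.

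Mitosis genes fell too, with exceptions. Of 37 tested members 32 fell (median -0.36). MKI67, the proliferation antigen, had 283, 303 and 292 CPM under FSS, against 467, 508 and 449 CPM in static cells. TOP2A had 798, 791 and 789 CPM under FSS, against 1069, 1078 and 1046 CPM in static cells. CDK1, the mitotic kinase, had 104, 103 and 101 CPM under FSS, against 111, 108 and 103 CPM in static cells, and was not called. CDC20, AURKA, CENPF and UBE2C, which also act in G2 and mitosis, were not called either, with log2 fold changes between -0.06 and 0.06. In ONS76 all 37 members fell, CDK1 by 0.71.

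Both an activator and inhibitors of G1 progression rose. CCND1, which activates CDK4 and CDK6, had 132, 143 and 149 CPM under FSS, against 95.3, 81.6 and 74.3 CPM in static cells. CDKN1C, an inhibitor of the same step, had 15.97, 14.7 and 16.6 CPM under FSS, against 8.19, 8.48 and 6.60 CPM in static cells. The inhibitor CDKN1B rose by 0.27, and CDKN1A, the p53-induced one, averaged 79.8 ± 0.96 CPM under FSS and 77.8 ± 8.04 CPM in static cells (SD, n = 3 each) and was not called. Of 21 tested p53 targets 4 rose and 8 fell (median -0.10), with DDB2 falling by 0.86, and the rises were 1 without FSS library 3 and 2 without static library 2.

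Most lipid synthesis genes fell. SREBF1, the transcription factor that drives fatty acid synthesis (chr17:17810399-17837002), had 48.5, 51.9 and 50.4 CPM under FSS, against 128, 132 and 135 CPM in static cells (log2 fold change -1.39 ± 0.04 SE, edgeR adjusted p = 2.96e-22). The rule that named SREBF1 required no overlap. Of its targets, the desaturase SCD had 625, 632 and 599 CPM under FSS, against 922, 930 and 935 CPM in static cells, and the synthase FASN fell by 0.41. Of 26 tested fatty acid genes 17 fell and 3 rose (median -0.23). Of 27 cholesterol synthesis and uptake genes 14 fell and 4 rose (-0.26), or 2 rose without FSS library 3 or static library 1. LSS, the cyclase that closes the sterol ring, had 91.0, 89.1 and 86.8 CPM under FSS, against 130, 128 and 140 CPM in static cells. SQLE, an epoxidase of the same pathway, had 58.1 ± 1.56 CPM under FSS and 57.3 ± 1.12 CPM in static cells (SD, n = 3 each) and was not called. The sterol element TCACNCCAC, on either strand, lay in 1 of 20 windows of that list (5%), that of SREBF2, against 1.05% of all windows.

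Of 17 tested genes of cholesterol export and sterol transport 5 rose and 5 fell (median -0.061), or 3 rose without FSS library 3, static library 1 or static library 2. The LXR targets ABCA1 and ABCG1, which export cholesterol, fell by 0.78 and 1.02, while NPC1L1, a sterol uptake protein best known from gut and liver, had 15.2, 12.7 and 15.3 CPM under FSS, against 1.36, 0.998 and 0.896 CPM in static cells. It rose, and the rule that named NPC1L1 required no overlap between conditions.

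Of 33 tested respiratory chain subunits encoded in the nucleus 17 fell and 5 rose (median -0.13), or 3 rose without FSS library 1, whereas 9 of 13 mitochondrially encoded mRNAs rose (0.33). MT-ND4 had 969, 960 and 830 CPM under FSS, against 660, 693 and 697 CPM in static cells, and MT-CO2 had 544, 505 and 457 CPM under FSS, against 513, 531 and 516 CPM in static cells and was not called. The FSS spread of these genes was wide, and the count of risen ones ran from 4 to 11 over the processing alternatives. Mitochondrial mRNAs made up 0.620 to 0.709% of counts under FSS and 0.545 to 0.574% in static cells. Among glycolytic genes PFKFB3, which makes the activator of phosphofructokinase, rose by 0.68 and PFKL, a subunit of that enzyme, fell by 0.66. The list held 6 rises and 9 falls among 25 (median -0.066). PDK1, which inhibits pyruvate dehydrogenase, had 3.58, 3.94 and 3.26 CPM under FSS, against 10.1, 10.4 and 9.95 CPM in static cells.

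The NRF2 list, genes of the response to oxidants and aldo-keto reductases, held 12 rises and 4 falls among 27 tested members (median 0.11). The thioredoxin reductase TXNRD1 rose by 0.50, whereas NQO1, a standard NRF2 target, had 42.9, 39.8 and 40.5 CPM under FSS, against 41.0, 38.3 and 44.4 CPM in static cells and was not called. The cystine carrier SLC7A11 fell by 0.74. The antioxidant element TGACNNNGC, on either strand, lay in 2 of 10 windows of risen members (20%) and 5 of all 19 (26.3%), against 14.9% of all windows.

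The ATF4 list, genes of the stress response to amino acid shortage, held 8 rises and 3 falls among 26 tested members (median 0.036), with 6 falls without FSS library 2 and 5 without static library 2. SLC38A2, a neutral amino acid carrier and one of the 10 genes with the largest rise in mean CPM, had 4748, 4780 and 4950 CPM under FSS, against 3836, 3834 and 3397 CPM in static cells. SLC3A2, the shared heavy chain of several carriers, had 649, 607 and 674 CPM under FSS, against 412, 376 and 374 CPM in static cells. SLC3A2 did not overlap between conditions, and the rule that named SLC38A2 required that. The cystine carrier SLC7A11, named above for its fall, belongs to this list too. Hypoxia-inducible targets held 8 rises and 3 falls among 22 (median 0.047), with NDRG1 up by 0.87 and the collagen hydroxylase P4HA1 up by 0.50 on the log2 scale. Of the glycolytic genes with the largest changes in mean CPM, PKM rose by 0.14 on the log2 scale and GAPDH fell by 0.30. GAPDH had 1920, 1847 and 1900 CPM under FSS, against 2352, 2355 and 2281 CPM in static cells. Of 37 tested cytosolic ribosomal protein genes 10 fell and 2 rose (median -0.058), and 17 fell without FSS library 1 but 6 without FSS library 2 or static library 3.

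Of 23 tested factors of neural and other lineages 6 rose (26.1%) and 4 fell (17.4%), against 19.5% and 20.1% of all tested genes (list median 0.14). SOX4, a factor of neural progenitors, had 268, 260 and 263 CPM under FSS, against 162, 148 and 155 CPM in static cells. EN2, a factor of the developing cerebellum, had 57.6, 51.8 and 63.8 CPM under FSS, against 37.6, 36.9 and 31.3 CPM in static cells. In both genes all FSS libraries lay above all static ones. SOX11 rose by 0.64 while PAX3 fell by 0.55 on the log2 scale. In ONS76 SOX4 rose too, by 0.65.

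Of 21 tested clock genes 5 rose (23.8%) and 7 fell (33.3%), against 19.5% and 20.1% of all tested genes (list median 0.093). BMAL1, an activator of the clock, had 49.6, 50.5 and 49.9 CPM under FSS, against 35.4, 35.5 and 35.4 CPM in static cells, and the related activator NPAS2 rose by 0.58 on the log2 scale. The repressor gene PER3 had 2.08 ± 0.13 CPM under FSS and 4.58 ± 0.30 CPM in static cells (SD, n = 3 each), and the output factor TEF fell by 0.73. The activator CLOCK and the repressors PER1 and PER2 were not called. Cells were taken at 1 time, so a level and a phase cannot be told apart.

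Of 34 tested integrins and adhesion genes 11 rose and 7 fell (median 0.031), with the integrin ITGB8 up by 0.51 and ITGA3 down by 0.52 on the log2 scale. Of 37 proteoglycan and heparan sulfate genes, which build the glycocalyx, 10 rose and 10 fell (27.0% each, median -0.026). HAS2, which makes hyaluronan, rose by 0.49, and AGRN, the proteoglycan agrin, fell by 0.40. Of 25 BCL2 family and cell death genes 8 rose (32.0%) and 6 fell (24.0%), with a median of 0.059. Without FSS library 1 or static library 3, 4 rose. HRK, a proapoptotic member, rose by 1.10, and BIRC5, a mitotic inhibitor of apoptosis, fell by 0.47. Of 27 interferon-stimulated genes 6 rose (22.2%) and 3 fell (11.1%), with OASL up by 0.79 on the log2 scale. Over all tested genes 19.5% rose and 20.1% fell.

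The DAOY response was set beside that of ONS76 by testing the difference of the responses gene by gene. It was called for 3740 genes (19.1%), positive for 1637 (8.34%) and negative for 2103 (10.7%). In ONS76 itself 5505 genes were called (28%). Of the DAOY rises 1361 were called higher in ONS76 too, which is 35.5% of the DAOY rises and 49.1% of the ONS76 rises, and 187 were called lower there. Of the DAOY falls 1563 were called lower in ONS76 (39.5% of the DAOY and 57.1% of the ONS76 falls), and 295 were called higher. For 1153 DAOY rises (30.1%) and 1498 DAOY falls (37.9%) the difference was called in the same direction as the DAOY change. The difference contains the DAOY change by which these genes were picked, so a lean in that direction is built in.

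Several genes went in opposite directions in the lines. IGFBP3, at 2.28 ± 0.56 CPM under FSS and 5.35 ± 0.62 CPM in static cells of ONS76 (SD, n = 3 each), fell there by 1.22 on the log2 scale, and the difference of responses was 2.54 ± 0.13 SE. SGK1 had 67.5 ± 2.19 CPM under FSS and 92.6 ± 4.88 CPM in static ONS76 cells, for a difference of 1.78 ± 0.08 SE. DKK1 had 52.4 ± 4.8 CPM under FSS and 109 ± 3.94 CPM in static ONS76 cells, for a difference of 2.25 ± 0.09 SE. These 3 rose in DAOY and fell in ONS76. PLK2, a kinase of the polo family, fell in DAOY, with 361, 358 and 349 CPM under FSS, against 587, 592 and 617 CPM in static cells, and rose by 0.48 on the log2 scale in ONS76. FAM180A rose in both lines, with 7.19 ± 0.62 CPM under FSS and 0.417 ± 0.092 CPM in static DAOY cells, against 16.2 ± 0.59 CPM under FSS and 11.3 ± 0.88 CPM in static ONS76 cells. These genes were chosen after their values were seen, among those at 5 CPM or more in both lines.

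Differences of response were counted list by list, to be read against 8.34% positive and 10.7% negative over all tested genes. The difference was called negative for 13 of 26 fatty acid genes and positive for 1, and negative for 12 of 27 cholesterol genes and positive for 1. SREBF1 had 261 ± 9.54 CPM under FSS and 310 ± 2.11 CPM in static ONS76 cells (SD, n = 3 each), and the difference of responses was -1.14 ± 0.06 SE (edgeR adjusted p = 3.8e-16). SCD rose by 0.31 on the log2 scale in ONS76. Interferon-stimulated genes showed 12 positive differences among 27, with list medians of 0.10 in DAOY and -0.50 in ONS76. Of the 13 KLF genes 7 differed positively and 1 negatively, and of the 27 YAP and TAZ targets 13 and 3. The G1/S list had medians of -0.41 in DAOY and -0.35 in ONS76, with 1 positive and 7 negative differences among 39. The G2/M and mitosis list went the other way, with medians of -0.36 and -0.46 and with 12 positive and 2 negative differences among 37. The heat shock list had 6 positive and 2 negative differences among 26. The lines were cultured and sequenced within 1 series, and their static levels differ, so a difference of log2 responses compares ratios and not amounts.

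**Figure D4:**
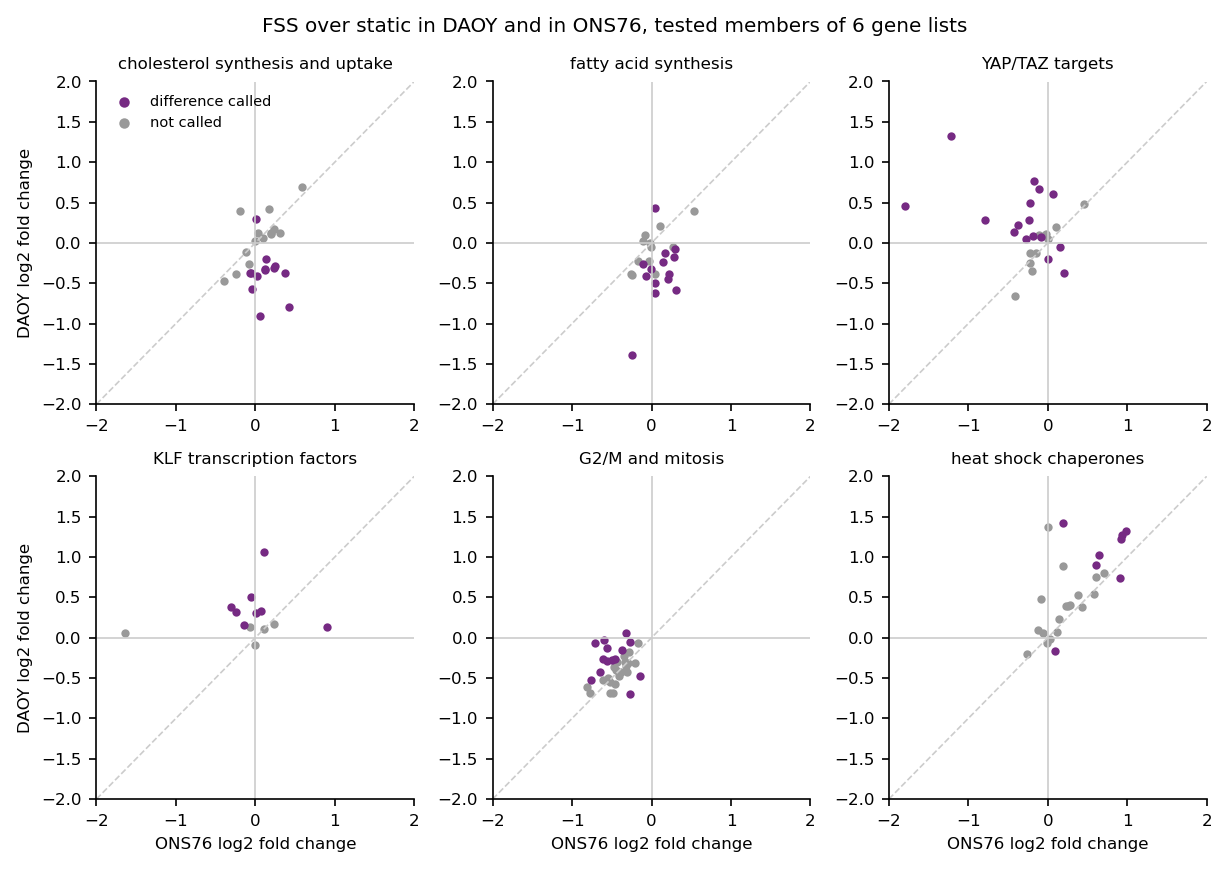
Log2 fold change of FSS over static in DAOY (vertical axes) against that in ONS76 (horizontal axes) for tested members of 6 gene lists, purple where the difference of responses was called and grey elsewhere, with the line of equal responses dashed. Most called lipid synthesis genes lie below that line, and most called YAP and TAZ targets and KLF genes lie above it.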

How the data were processed

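PolyA RNA was sequenced as paired 100 bp reads on a directional library, per the labels' protocols. Per the submitters' processing notes the authors used HISAT2 2.2.1 and featureCounts on GRCh38. The strand setting, the annotation and the unit counted (reads or pairs) were not given in the sources used here.

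Raw counts per gene were deposited by the authors. They also deposited TPM values, which equalled counts per length, scaled, within 0.1% for 16672 of 16672 genes compared.

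Counts of the 12 libraries were fitted together in edgeR 4.0.16 (R 4.3.3) with 4 group means, TMM scaling, filterByExpr and the quasi-likelihood F test, two-sided. Benjamini-Hochberg adjustment ran over all 19631 genes tested, and a call is an adjusted p under 0.05. SE is the size of the log2 fold change over the square root of F. CPM are normalised by TMM. Alternatives used DESeq2 1.42.0 and, on log2 TPM plus 1 or 0.1, limma 3.58.1. The fit was tested on simulated data. Libraries of a group differed by more than counting noise, and every library counted as 1 replicate. The libraries held 38.1 to 44.7 M counts in DAOY.

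Same-numbered FSS and static libraries had correlations of 0.0755, 0.0193 and -0.117 of their deviations from group means, so the numbers were not used as pairs.

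Genes were named by rule: called, at 5 CPM or more in either group and not overlapping, the 20 largest rises and falls in log2 fold change and the 10 largest rises and falls in CPM, the 5 most positive and negative differences between lines, and up to 6 list members by smallest p. Other names were chosen after their values were seen. The genes and lists were chosen with earlier results of these data known. GENCODE 29 gave GRCh38 positions by gene ID, and RefSeq GRCh38.p14 gave promoter windows for 12761 tested genes.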

Additional observations from a re-analysis of the deposited data

Results flagged for a closer look

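The difference between the DAOY and the ONS76 response, tested by the interaction term in edgeR, was called positive for 1637 genes and negative for 2103 genes. By rule, the 5 most positive and the 5 most negative called differences are given here on the log2 scale. They were 8.54 for MYH7, 6.14 for COL1A2, 5.11 for LEF1, 4.68 for LONRF3 and 4.49 for CNNM1 on the positive side. On the negative side they were -4.94 for LINC01139, -4.74 for CLCA2, -4.21 for KRT13, -3.32 for IRX4 and -3.16 for RFPL4A.

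In all 10 at least 1 group held few counts, so their size depends on the prior count of the fit and is no bound. MYH7 summed to 4 counts under FSS and 1210 counts in static ONS76 cells, where static library 1 had 21.4 CPM, static library 2 had 7.36 CPM and static library 3 had 0.056 CPM. COL1A2 summed to 132483 counts under FSS and 84529 counts in static DAOY cells, against 0 counts under FSS and 16 counts in static ONS76 cells. LEF1 summed to 0 counts under FSS and 11 counts in static ONS76 cells. KRT13 summed to 0 counts under FSS and 13 counts in static DAOY cells, against 556 counts under FSS and 1021 counts in static ONS76 cells. CLCA2 summed to 0 counts under FSS and 7 counts in static DAOY cells. In ONS76 the other sums were 0 counts under FSS and 4 in static cells for LONRF3, 0 and 6 for CNNM1, 6 and 0 for LINC01139, 18 and 1 for IRX4, and 32 and 3 for RFPL4A.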

How the results depend on the processing

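The numbers of called genes in DAOY stayed within 1.5 times under every alternative run. Over all of them 3188 to 4307 genes were called higher and 3449 to 4242 lower. With the DAOY libraries alone, 18598 genes were tested and 8223 called. Leaving out each DAOY library in turn gave 3188 to 3386 higher and 3449 to 3744 lower, and for the difference between lines 1373 to 1503 positive and 1846 to 2128 negative. With the replicate number as a block, edgeR called 3765 genes higher and 3902 lower, and 1611 differences positive and 2082 negative. Of the calls 7556 were shared with the fit without the block. The median of all genes moved to 0.031 with upper-quartile scaling, and 45.99 to 54.75% of calls were higher over the alternatives, against 49.24%. On log2(TPM + 1) the difference between lines reversed for KRT13 (0.54) and IRX4 (0.20), and 4 of the other 8 of those 10 genes lost their call. On log2(TPM + 0.1) 6 of the 10 lost it. The cause was not tested. Of the genes named by the rule for DAOY changes, MT-CO1 lost its call under 3 of 15 alternatives and COL6A3 under 1. List counts that moved by over 1.5 times include risen mitochondrial mRNAs (4 to 11) and fallen ribosomal genes (6 to 17). Depth limits genes of few counts, whose fitted changes depend on the prior count.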
